A study of Homo sapiens with 30 samples.

Results

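Tobacco shisha heated electrically, without burning charcoal, was compared with control 24 h after exposure. The members were found from the sample labels: the 3 wells titled ET_24hr against the 3 control wells titled IC_24hr, which are 6 of the 30 libraries of the series. The cells were BEAS-2B, an immortalised line made from human bronchial epithelium, so all 30 libraries share 1 cell line. The exposed wells (treatment label "Electronic and tobacco") met the smoke for 30 min on a rocker and were lysed 24 h later. The same time point also had 3 wells each of charcoal with no shisha, charcoal with non-tobacco (herbal) shisha and charcoal with tobacco shisha, and electrically heated tobacco and control were also sampled at 2 h. For each exposure the strongest preparation that released no LDH by 24 h was used, so the exposures were matched on that endpoint and not on smoke mass or nicotine. How the control wells were handled, and whether the 3 wells of a group were separate cultures, is not stated by the labels, and p-values measure only the spread between wells.

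The values are FPKM, fragments per kilobase of transcript, scaled to the mapped total, a level that is already divided by transcript length. Changes are differences of mean log2(FPKM + 1), tested with limma over 8531 genes, and genes with an adjusted p under 0.05 are referred to as called. The 6 libraries had FPKM sums of 204237 to 210574 and 7737 to 7872 genes at 1 FPKM or more. Exposed wells correlated with each other at 0.9835 to 0.9898, and control wells at 0.9896 to 0.9919 (Pearson, log2 values, across genes). FPKM is a share of each library, so less RNA of a gene per cell and fewer cells carrying it cannot be told apart. The bronchial epithelial label was set against marker genes: KRT8 lay at 513 to 589 FPKM in control and KRT18 at 306 to 386, while CDH1 (E-cadherin), EPCAM and KRT5 were all under 1 FPKM in these 6 libraries. None of the ciliated cell or red blood cell genes was tested. Of 14 immune markers 12 were under 1 FPKM in every one of the 6 wells, the defining PTPRC among them, while CD14 (11.1 to 12.5 FPKM in control) and CD68 (10.9 to 13.6) were expressed. Of 10 endothelial markers 9 were under 1 FPKM, PECAM1 among them, and EGFL7 was at 10.9 to 11.7 FPKM in control. Of 11 fibroblast markers 6 were under 1 FPKM, among them DCN, COL3A1 and PDGFRA, but COL1A1, COL1A2, THY1, PDGFRB and S100A4 were expressed, THY1 at 140 to 145 FPKM in control.

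Cells meet damaged or unfolded protein with the heat shock response. The transcription factor HSF1 binds heat shock elements, inverted repeats of the short unit nGAAn, and switches on chaperones: HSP70 proteins that hold unfolded chains, HSP40 proteins that deliver them, HSP90 and the chaperonins that finish folding, and small HSPs that keep aggregates soluble. Electrophiles in smoke also release the factor NRF2, which acts through antioxidant response elements on genes of glutathione, quinone and peroxide metabolism. In airway epithelium both programmes are known responses to inhaled toxicants.

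The largest rises 24 h after electrically heated tobacco were in HSP70 genes and in a cluster of secreted matrix proteases. HSPA6, an HSP70 gene that is nearly silent in unstressed cells, went from under 0.11 FPKM in every control well to between 14.9 and 244 FPKM. MMP3 (stromelysin-1), a protease that cuts matrix proteins, went from under 0.24 FPKM to between 99.4 and 173 FPKM. The 12 largest rises were MMP3, HSPA6, HSPA7, MMP1, HSPA1A, MMP10, HSPA1B, DNAJA4, TSPYL2, CCL26, IL11 and OSGIN1. The 12 largest falls were NPPB, PDZK1IP1, DHRS3, GJA1, HSPG2, COL5A2, RASGRF1, ASS1, GBP1, PLAC8, BNIP3 and IDH2. Across the transcriptome 5440 of 8531 genes were called (63.8%), 2922 higher (34.3%) and 2518 lower (29.5%), so a count of members called is read against these shares. A change of at least 2-fold was seen in 188 called genes upward (2.2%) and 221 downward (2.59%). In 3114 genes (36.5%) all 3 exposed wells lay above all 3 control wells, and in 2636 (30.9%) below them. The median change over all tested genes was 0.03.

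Promoters of 5 chaperone genes are shown first, picked because they hold the element that defines the response. Most promoters found for the chaperone genes that rose held no such element, with the counts given below. The 60-base windows below come from RefSeq promoters on GRCh38.p14, 5′ to 3′ on the gene's strand. Capitals mark heat shock elements of 3 alternating units, or the form of 2 units in HSPA1A. Position 0 is the first transcribed base.
HSPA6: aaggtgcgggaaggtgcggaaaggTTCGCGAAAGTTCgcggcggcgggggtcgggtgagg
SERPINH1: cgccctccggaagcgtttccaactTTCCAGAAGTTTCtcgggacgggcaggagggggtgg
CHORDC1: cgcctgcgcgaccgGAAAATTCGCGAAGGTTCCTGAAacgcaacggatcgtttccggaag
HSPA8: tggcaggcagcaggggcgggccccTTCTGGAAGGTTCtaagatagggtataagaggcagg
HSPA1A: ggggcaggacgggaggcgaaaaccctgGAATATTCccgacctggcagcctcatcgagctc
The windows are chr1:161524442-161524501 (HSPA6, plus strand), chr11:75562153-75562212 (SERPINH1, plus), chr11:90223064-90223123 (CHORDC1, minus), chr11:123062156-123062215 (HSPA8, minus) and chr6:31815410-31815469 (HSPA1A, plus). In HSPA6 an element of 3 alternating units lies at -74 to -62. CHORDC1 has a run of overlapping elements at -60 to -38, the longest of these 5. It also holds a form of 2 units at -23 to -16, which is left in lower case. HSPA1A holds the form of 2 units, at -106 to -99.

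The 3-unit element was searched on both strands as GAA, 2 bases of any kind, TTC, 2 bases of any kind and GAA, in 300-base promoters, most of each before the start site. It occurred in 4 of the 34 promoters found for called-higher genes of the 3 HSP lists (11.8%): CHORDC1, DNAJA1, HSPA6 and HSPA8. SERPINH1, which is on another list, also held it. The share was 0.303% of 6267 promoters of tested genes and 0.49% of 35116 RefSeq promoters of the same length. The 2-unit form, GAANNTTC or TTCNNGAA with N for any base, which every 3-unit match also contains, occurred in 12 of the 34 (35.3%), against 9.69% of the tested genes' promoters and 13.5% of all. The 12 are not separate sites. The match of HSPA1A and that of HSPA1L are the same bases, counted once for each gene, and the HSPA1B promoter is nearly identical to that of HSPA1A. Among the 8 promoters of tested HSP members that were not called higher, none held either form. Promoters as few as 8 cannot tell this from the shares among tested genes. An antioxidant response element, TGACNNNGC, occurred in 4 of 13 promoters of called-higher NRF2 list genes (30.8%), against 15.2% of tested genes' promoters and 13.3% of all. These matches describe letters in a fixed window and do not show binding.

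Among HSP70 and HSP110 genes, 12 of the 13 tested rose and none fell, with a median change of 1.29. HSPA1A, the main stress-inducible HSP70, was at 13.6, 13.6 and 15.3 FPKM in the control wells and at 234, 81.4 and 341 FPKM in the exposed wells. All 3 exposed wells lay far above control, and the second well was the lowest. The change was 3.63 ± 0.27 (SE; adjusted p = 1.23e-10), and 4.23 without the second exposed well. HSPA1B, its near-identical neighbour on chromosome 6, was at 216, 73.9 and 328 FPKM in the exposed wells against 14.4 to 16.1 in control. HSPA6 was at 103, 14.9 and 244 FPKM in the exposed wells, a change of 6.14 ± 0.50 (adjusted p = 4.97e-10) that became 7.25 without the second well. HSPA7, a transcribed pseudogene almost identical to HSPA6, followed it with 39.1, 5.99 and 91.4 FPKM against under 0.06 in control. Reads of 50 bases can be shared within each of these pairs, so neither member's level is certain on its own. HSPA1L, an HSP70 gene beside HSPA1A on the opposite strand, was listed at 0 in all 3 control wells and in the second exposed well. It was at 4.27 and 1.91 FPKM in the others. Whether its reads stem from HSPA1A cannot be told here. The 12 that rose include HSPA1L and both of these pairs, so they are not 12 separate signals. The same limit holds for counts over the 3 HSP lists together.

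The constitutive members moved less but from a far higher level. HSPA8 (HSC70), the housekeeping HSP70 of the cytosol, was at 610, 582 and 627 FPKM in control and 1586, 1038 and 1969 FPKM in the exposed wells, a change of 1.29 ± 0.15 (adjusted p = 8.15e-08). HSPH1, an HSP110 that reloads HSP70 with ATP, went from 38.2, 30.0 and 35.3 FPKM to 161, 108 and 232 FPKM. Its change of 2.18 ± 0.17 was the largest among the members that were well expressed in control (adjusted p = 1.83e-10, over 30 FPKM in each control well). HSPA9, the HSP70 of the mitochondrial matrix, rose by 1.03 ± 0.08, with 213, 168 and 227 FPKM in the exposed wells against 94.1, 94.4 and 105. HSPA2 was the tested member not called, at a change of 0.13.

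**Figure D1:**
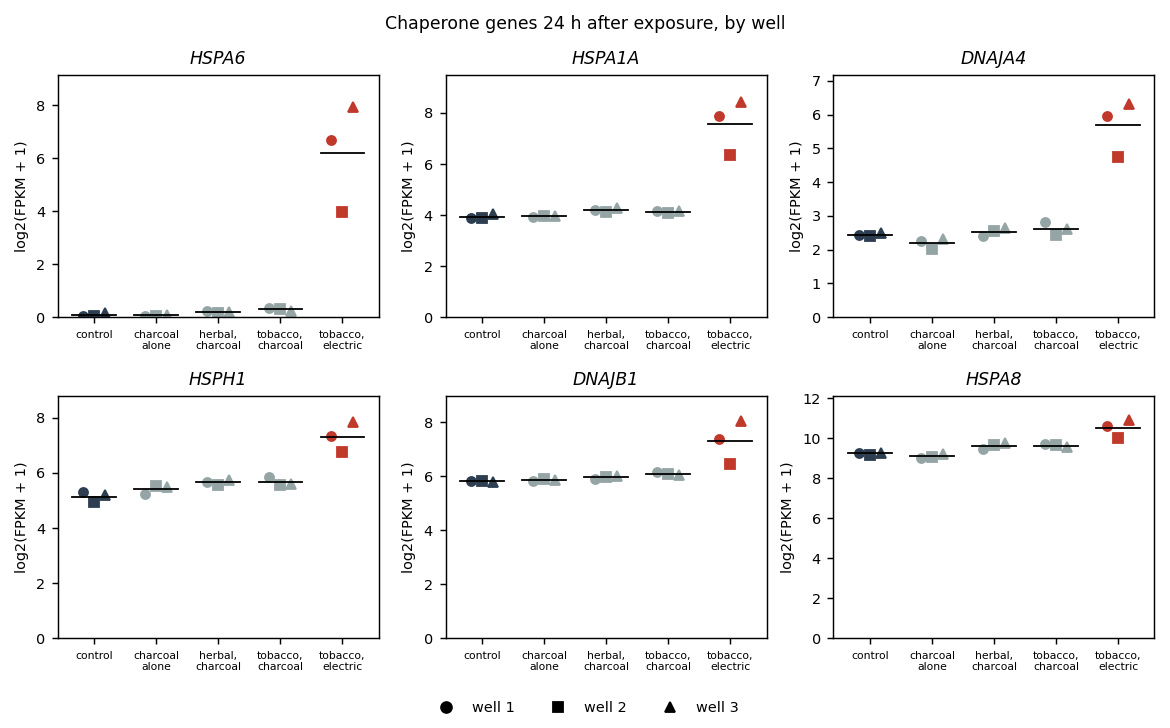
Levels of 6 chaperone genes at 24 h as log2(FPKM + 1), with 1 point per well for control, the 3 charcoal exposures and tobacco shisha on the electric heater; bars are the mean of 3 wells. In each panel the 3 electric heater wells sit above the control wells and well 2 is the lowest of them, as for HSPA1A at 81.4 FPKM beside 234 and 341.

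Of the HSP40 co-chaperones, 9 of 14 tested rose and 1 fell (median 0.61). DNAJA4 stood out, with 4.41, 4.29 and 4.59 FPKM in control and 61.5, 25.9 and 78.8 FPKM in the exposed wells, a change of 3.24 ± 0.22 (adjusted p = 3.93e-11). DNAJB1, the partner that HSP70 uses to dissolve aggregates, was at 54.9, 56.1 and 54.5 FPKM in control and 166, 86.6 and 265 FPKM after exposure. The exposed wells again did not overlap the control wells, and the change was 1.49 ± 0.20. DNAJA1 rose by 1.37 and DNAJB4 by 1.23. DNAJC7 rose by 0.66 and DNAJC10, a disulfide reductase of the endoplasmic reticulum, fell by 0.42. DNAJA3 was listed at 0 in all control wells and in exposed well 3, and at 9.63 and 10.4 FPKM in the others. It was not called (adjusted p = 0.0659), and its exact zeros may be failed estimates.

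HSP90, its helpers, the chaperonins and the small HSPs gave 18 higher and 2 lower of 21 tested (median 0.80). HSP90AA1, the inducible cytosolic HSP90, was at 206, 164 and 224 FPKM in control and 414, 539 and 696 FPKM after exposure, a change of 1.45 ± 0.19 (adjusted p = 5.53e-07). Here the first exposed well, not the second, was the lowest. STIP1, which links HSP70 to HSP90, went from 100.4, 99.8 and 109 FPKM to 287, 226 and 301 FPKM (change 1.38 ± 0.07). CHORDC1, an HSP90 co-chaperone, rose by 1.86 and FKBP4, an HSP90-bound immunophilin, by 1.91. HSPB8, a small HSP that works in chaperone-assisted autophagy, rose from 0.59, 0.81 and 0.71 FPKM to 12.6, 5.09 and 19.6 FPKM, a change of 2.81. The mitochondrial chaperonin HSPD1 (HSP60) rose by 1.35 ± 0.10, with 288, 249 and 383 FPKM against 105, 116 and 134. CCT2 and CCT3, subunits of the cytosolic chaperonin for actin and tubulin, rose by 0.76 and 0.80. FKBP5 fell by 0.39 and HSPB11 by 0.17.

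Taken over the 3 HSP lists, 39 of 48 tested genes rose and 3 fell, with a median change of 0.93. The background shares were 34.3% higher and 29.5% lower. Well 2 of the exposed group was the weakest in this response: it lay nearest to control for 35 of the 39 genes that rose (89.7%). Among all called-higher genes well 2 was nearest for 52.5%, and among all called-lower genes for 76.8%. For called genes with a change of 2-fold or more, the shares were 83.5% of those higher and 80.1% of those lower. The weaker well 2 was therefore not particular to the chaperones. The median change of the 48 genes was 1.00 in well 1, 0.63 in well 2 and 1.02 in well 3, each against the mean of the control wells. Leaving out well 2 gave the same counts for the HSP40 list and for the HSP90 list and 13 of 13 higher for the HSP70 list.

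Other genes linked to HSF1 gave 7 higher and none lower of 10 tested (median 0.34). SERPINH1 (HSP47), the collagen chaperone of the endoplasmic reticulum, was at 144, 141 and 139 FPKM in control and 501, 279 and 621 FPKM after exposure, a change of 1.64 ± 0.15 (adjusted p = 3.24e-09). DEDD2 rose by 1.60 and CLU (clusterin), a secreted chaperone, by 1.36 ± 0.16, with 30.0, 22.7 and 45.5 FPKM against 10.5 to 12.5 in control. UBB, a polyubiquitin gene, varied widely between control wells (416, 314 and 173 FPKM) and reached 398, 479 and 751 FPKM after exposure. Its groups overlapped, although it was called (adjusted p = 0.0294). In the endoplasmic reticulum, 5 of 10 tested chaperones rose and 2 fell (median 0.21). HSPA5 (BiP), the HSP70 of that compartment, was at 177, 187 and 173 FPKM in control and 296, 283 and 316 FPKM after exposure, a change of 0.74 ± 0.06.

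The routes that clear damaged protein also moved. Of 26 tested proteasome subunits 23 rose and none fell, but by little, with a median change of 0.29. PSMD13, a subunit of the regulatory lid, was at 70.3, 67.2 and 76.3 FPKM in control and 126, 123 and 120.3 FPKM after exposure (change 0.78 ± 0.06, adjusted p = 1.42e-10). PSMC4, an ATPase of the base, went from 69.3, 68.0 and 71.8 FPKM to 113, 113 and 106 FPKM. The exposed wells were tight for both. Well 2 was not the weakest here: it was nearest to control for 3 of the 23 subunits that rose, and its median change over the 26 was 0.41 beside 0.28 and 0.24 in wells 1 and 3. Autophagy and lysosome genes gave 12 higher and 3 lower of 20 (median 0.29). MAP1LC3B, which coats autophagosomes, rose from 13.1, 13.7 and 12.7 FPKM to 36.4, 27.6 and 42.0 FPKM (change 1.34 ± 0.13), and CTSL, a lysosomal protease, rose by 0.93 ± 0.08.

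NRF2 targets gave 16 higher and 3 lower of 24 tested (median 0.48). NQO1, which reduces quinones, was at 40.3, 40.1 and 36.8 FPKM in control and 123, 134 and 115 FPKM after exposure, a change of 1.64 ± 0.07 (adjusted p = 1.3e-13). The second exposed well was the highest for this gene. SRXN1, which repairs oxidised peroxiredoxins, went from 38.2, 37.3 and 38.1 FPKM to 88.4, 77.9 and 88.1 FPKM, a change of 1.14 ± 0.06. PRDX1, a peroxiredoxin, rose by 0.97 ± 0.05. OSGIN1, a growth inhibitor induced by oxidative stress, rose from 0.55, 0.43 and 0.38 FPKM to 12.6, 7.64 and 11.2 FPKM (change 2.96 ± 0.20). AKR1C1, an aldo-keto reductase with close paralogs that may share its reads, went from at most 0.20 FPKM to 4.53, 4.15 and 5.95 FPKM. TXNRD1, thioredoxin reductase, was not called, with a change of -0.01. TALDO1, BLVRB and ABCC3 fell. Among 5 tested AHR targets, genes of the dioxin receptor pathway, 2 rose: SERPINB2, from at most 0.07 FPKM to 6.37, 2.09 and 11.4 FPKM, and TIPARP by 0.43. CYP1B1 was at 6.09, 6.04 and 4.62 FPKM in control and 3.12, 5.47 and 3.34 FPKM after exposure, which was not called (adjusted p = 0.074). Without the second exposed well its change was -0.63 and called (adjusted p = 0.0133). CYP1A1 stayed below 1 FPKM in all 6 wells.

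**Figure D2:**
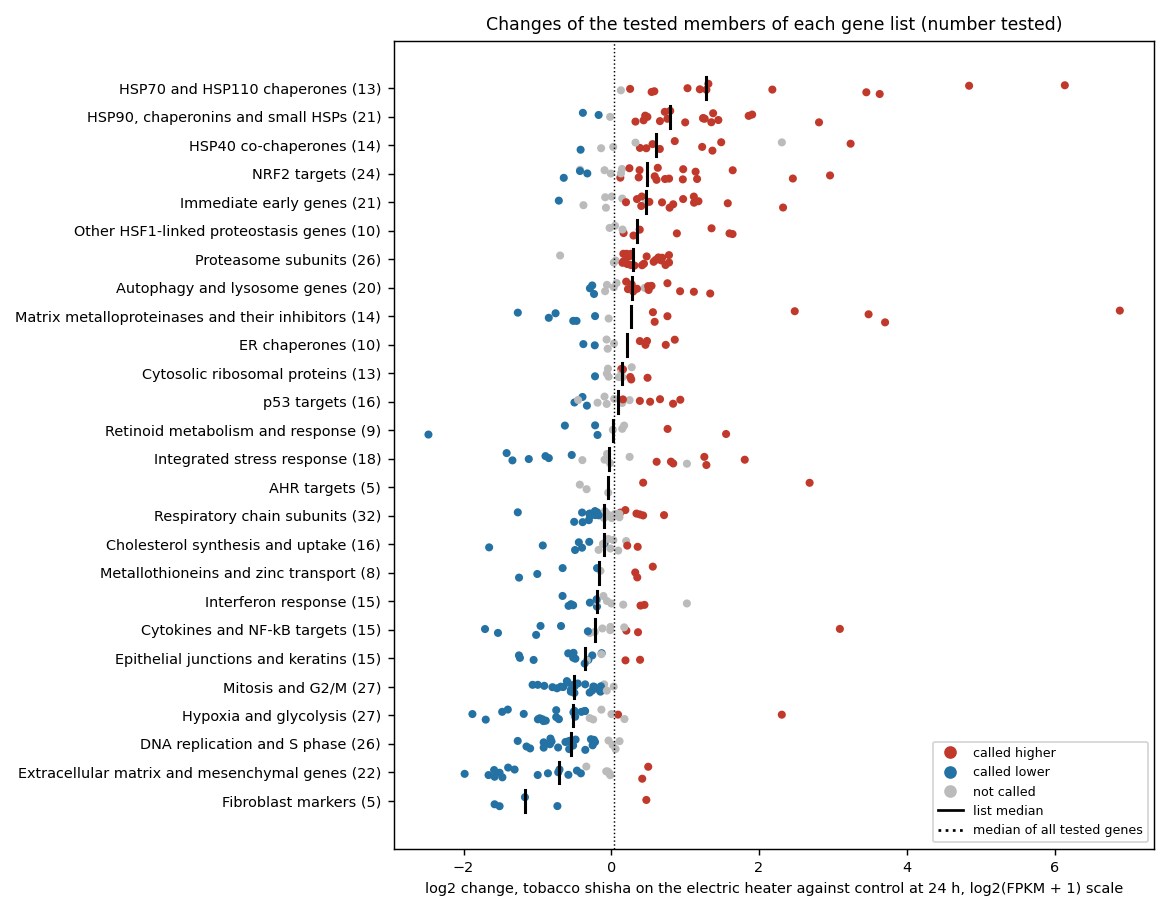
Log2 change at 24 h against control for every tested member of 26 gene lists, with the number tested in brackets; red points were called higher, blue lower and grey not called, black bars are list medians and the dotted line is the median of all tested genes. The HSP70 list has the highest median (1.29), and fibroblast markers (-1.17) and extracellular matrix genes (-0.71) the lowest.

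The proteases MMP3, MMP1 and MMP10 rose, while most tested genes of the matrix itself fell. MMP3 was at 0.14, 0.24 and 0.14 FPKM in control and 149.9, 99.4 and 173 FPKM after exposure, a change of 6.88 ± 0.22 (adjusted p = 4.43e-16). MMP1, the collagenase that opens fibrillar collagen, was listed at 0, 0.06 and 0.09 FPKM in control and 14.5, 7.06 and 19.5 FPKM after exposure (change 3.71 ± 0.22). MMP10, stromelysin-2, was listed at 0 in every control well and at 10.9, 5.19 and 17.9 FPKM in the exposed wells. All 3 genes lie in 1 cluster on chromosome 11 (hg38), MMP10 at 102770502 to 102780628, MMP1 at 102789919 to 102798160 and MMP3 at 102835801 to 102843609. MMP12, the next gene, did not pass the filter on low values but showed the same order of wells, 0 in control and 1.03, 0.31 and 1.59 FPKM after exposure. MMP7, MMP20, MMP27, MMP8 and MMP13, in the same cluster, were listed at 0 in all 6 wells. Of the 14 tested proteases and inhibitors 7 rose and 6 fell (median 0.26). ADAMTS1, which cleaves proteoglycans, rose by 2.48. The inhibitor TIMP1 rose from a mean of 96.6 FPKM to 145, 142 and 142 FPKM (change 0.56), while TIMP2 fell from 172, 178 and 161 FPKM to 97.8, 110.1 and 94.2 FPKM (change -0.75).

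Extracellular matrix and mesenchymal genes gave 15 lower and 2 higher of 22 tested (median -0.71). COL1A1, a chain of type I collagen, went from 143, 145 and 126 FPKM to 44.4, 52.8 and 46.1 FPKM, a change of -1.51 ± 0.12 (adjusted p = 1.75e-10). COL1A2, its partner chain, fell by 1.58 ± 0.15 and COL5A2, a chain of type V collagen, by 1.99 ± 0.15. LOX, which cross-links collagen, was almost constant within groups, at 15.2, 15.2 and 15.3 FPKM in control and 4.13, 4.67 and 4.41 FPKM after exposure (change -1.59 ± 0.05, adjusted p = 8.28e-16). HSPG2 (perlecan), a basement membrane proteoglycan despite its HSP-like symbol and in no list, fell from 10.8, 11.8 and 9.81 FPKM to 1.26, 2.06 and 2.41 FPKM. CDH2 (N-cadherin), at 65.1, 62.3 and 62.9 FPKM in control, fell to 33.4, 38.7 and 31.8 FPKM. VIM (vimentin) was not called, at a change of -0.05, and the integrin ITGA5 rose by 0.50. Of the 5 tested fibroblast markers 4 fell, among them THY1 (change -0.73), and 1 rose; this list overlaps the matrix list. The summed level of the 11 markers was 309 to 331 FPKM in control wells and 147 to 167 in exposed wells, and its part in the matrix result was not tested. SERPINH1, the collagen chaperone above, rose while its client collagens fell.

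**Figure D3:**
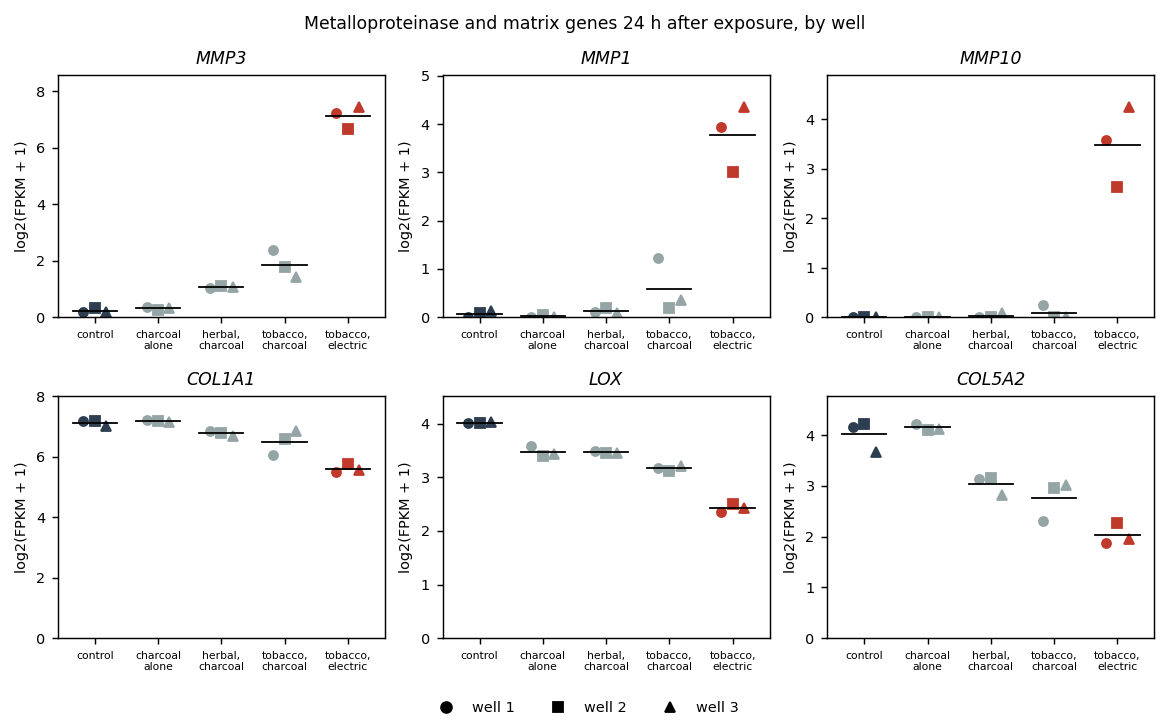
Levels of 3 metalloproteinase genes (top) and 3 matrix genes (bottom) at 24 h as log2(FPKM + 1), 1 point per well, with bars at the mean of 3 wells. The electric heater wells are highest for MMP3, MMP1 and MMP10 and lowest for COL1A1, LOX and COL5A2, with LOX at 4.13 to 4.67 FPKM beside 15.2 to 15.3 in control.

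Epithelial junction and keratin genes gave 11 lower and 2 higher of 15 tested (median -0.36). KRT19, a simple-epithelium keratin, went from 56.6, 54.8 and 46.1 FPKM to 20.5, 24.8 and 19.8 FPKM (change -1.24 ± 0.12). PKP2, a desmosome plaque protein, fell by 1.25 ± 0.09 and DSG2, a desmosomal cadherin, by 0.58. GJA1 (connexin 43), the main gap junction channel of many cells and in no list, was at 19.1, 18.5 and 15.5 FPKM in control and 2.14, 3.14 and 2.81 FPKM after exposure, a change of -2.34 ± 0.19 (adjusted p = 3.41e-10). MUC1, a membrane mucin and the 1 tested gene of the mucin list, fell from 4.39, 3.98 and 3.20 FPKM to 0.49, 0.76 and 0.25 FPKM. Leaving out the second control well left 8 junction and keratin calls, 1 higher and 7 lower.

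Most tested genes of DNA replication fell: 22 of 26 tested were lower and none higher, with a median change of -0.55. MCM6, a subunit of the replicative helicase, went from 43.3, 41.9 and 41.1 FPKM to 16.2, 18.2 and 16.4 FPKM (change -1.27 ± 0.09, adjusted p = 1.36e-10). MCM4 went from 69.1, 69.6 and 71.7 FPKM to 34.3, 39.4 and 36.5 FPKM, and TK1, which makes thymidine phosphate in S phase, from 315, 315 and 302 FPKM to 167, 189 and 168 FPKM. Of 27 tested genes of mitosis 23 were lower and none higher (median -0.50). HMMR, a spindle protein, fell by 1.07 ± 0.10, KIF11, the motor that separates spindle poles, by 0.68 ± 0.06 and TPX2 by 0.50 ± 0.05. TTK and CDC20, which act in the spindle checkpoint, were not called, at changes of 0.03 and -0.10. The second exposed well was nearest to control for 21 of the 22 replication genes and 22 of the 23 mitosis genes that fell. Its median change over the 26 replication genes was -0.43, beside -0.59 and -0.61 in wells 1 and 3. Of the p53 targets, 6 of 16 rose and 3 fell (median 0.09). CDKN1A (p21), which stops the cell cycle, was at 44.2, 46.9 and 40.3 FPKM in control and 66.7, 65.8 and 76.8 FPKM after exposure, a change of 0.66 ± 0.09.

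Hypoxia and glycolysis genes gave 20 lower and 2 higher of 27 tested (median -0.51). BNIP3, which drives mitophagy, went from 164, 166 and 158 FPKM to 42.0, 44.6 and 43.6 FPKM (change -1.88 ± 0.09, adjusted p = 2.21e-13). PDK1, which closes the entry of pyruvate into mitochondria, went from 8.71, 7.59 and 7.23 FPKM to 2.14, 2.64 and 2.26 FPKM. LDHA, lactate dehydrogenase A, fell from 513, 531 and 487 FPKM to 177, 160 and 135 FPKM (change -1.70). PFKP, a phosphofructokinase, fell by 0.92 ± 0.06. Against this direction, ANGPTL4, a secreted inhibitor of lipoprotein lipase, rose from 0.11, 0.09 and 0.20 FPKM to 5.04, 3.33 and 5.77 FPKM. The control wells themselves stood higher at 24 h than at 2 h for these genes: BNIP3 averaged 34.7 ± 1.9 FPKM (SD, n = 3) in control at 2 h and 162 ± 4.2 at 24 h, PDK1 2.71 ± 0.18 and 7.84 ± 0.78, and LDHA 239 ± 56 and 511 ± 22. The exposed wells at 24 h (BNIP3 43.4 ± 1.3, PDK1 2.35 ± 0.26) lay nearer to the 2 h control than to the 24 h control. The part of culture time in this difference was not tested.

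Respiratory chain subunits gave 13 lower and 6 higher of 32 tested (median -0.10). NDUFV1, the flavin subunit of complex I, stood apart, with 91.9, 92.5 and 89.1 FPKM in control and 36.2, 40.9 and 35.1 FPKM after exposure (change -1.27 ± 0.08). NDUFB9, also of complex I, rose by 0.71 and SDHB of complex II by 0.43. IDH2, the mitochondrial isocitrate dehydrogenase that makes NADPH, is in no list. It fell from 43.2, 42.1 and 38.1 FPKM to 9.46, 12.5 and 9.83 FPKM, a change of -1.87 ± 0.11. ASS1, which makes argininosuccinate from citrulline and is also in no list, fell by 1.97 ± 0.16. Cholesterol genes gave 7 lower and 2 higher of 16 (median -0.10). LSS, lanosterol synthase, fell by 0.93 and ACAT2 by 0.49. Of 13 cytosolic ribosomal proteins 5 rose and 1 fell, all by less than 0.5.

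Integrated stress response genes gave 6 higher and 6 lower of 18 tested (median -0.04). These counts lie near the shares over all tested genes, 34.3% higher and 29.5% lower, so they are no result on the list as a whole. SLC3A2, the heavy chain of several amino acid transporters, was at 97.8, 99.2 and 89.3 FPKM in control and 374, 241 and 420 FPKM after exposure, a change of 1.81 ± 0.13 (adjusted p = 9.38e-11). PPP1R15A, the phosphatase subunit that ends the response, went from 22.5, 25.4 and 23.0 FPKM to 88.7, 28.6 and 75.9 FPKM, with the second well close to control. In the other direction, the serine synthesis enzyme PHGDH fell from 108, 113 and 112 FPKM to 51.2, 51.1 and 49.6 FPKM (change -1.12 ± 0.07), asparagine synthetase ASNS fell by 1.42 and SLC7A5, the light chain that pairs with SLC3A2, by 0.85.

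Most immediate early genes, which answer a stimulus within minutes, were above control at 24 h: 14 of 21 tested were higher and 1 lower (median 0.46). DUSP5, a phosphatase that switches off ERK in the nucleus, went from 3.78, 3.75 and 2.86 FPKM to 22.7, 12.5 and 33.5 FPKM (change 2.32 ± 0.21). FOS, part of the AP-1 factor, was at 0.38, 0.44 and 0.31 FPKM in control and 3.30, 0.92 and 7.38 FPKM after exposure, a low level with a wide spread (change 1.58 ± 0.29, and 2.12 without the second well). DUSP1 rose by 1.12 and IER2 by 0.97. EGR1 rose by 0.79 in the fit on all groups (adjusted p = 0.00299). On the compared groups alone its adjusted p was 0.0675. FOSL2, another AP-1 part, was the 1 member that fell.

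Cytokines moved one by one, with 3 higher and 6 lower of 15 tested (median -0.22). IL11, a cytokine of the IL-6 family that acts on stroma, went from 3.09, 3.00 and 2.87 FPKM to 36.8, 24.2 and 40.3 FPKM, a change of 3.09 ± 0.28 (adjusted p = 2.56e-09). CCL26 (eotaxin-3), which attracts eosinophils and is in no list, went from 0.54, 0.88 and 0.81 FPKM to 15.1, 9.55 and 20.4 FPKM (change 3.15 ± 0.26). CXCL8, the neutrophil chemokine, rose slightly, from 60.3, 61.8 and 62.2 FPKM to 77.4, 78.2 and 81.9 FPKM. Its relatives CXCL5 and CXCL6 fell by 1.53 ± 0.12 and 1.71 ± 0.21. IL6 was at 5.55, 6.33 and 4.78 FPKM in control and 3.89, 5.12 and 3.79 FPKM after exposure, overlapping ranges with an adjusted p of 0.0298. It was not called with any 1 of control wells 1 and 2 and exposed wells 1 and 3 left out (adjusted p 0.0621 to 0.149). Interferon response genes gave 2 higher and 7 lower of 15 (median -0.20), with STAT2 down by 0.66 ± 0.08, IFITM2 by 0.58 and IFITM3 by 0.55. GBP1, an interferon-induced GTPase that is in no list, fell from 18.4, 19.6 and 12.3 FPKM to 3.72, 4.16 and 3.05 FPKM.

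Metallothionein and zinc genes gave 3 higher and 4 lower of 8 (median -0.17). MT2A, the main metal-binding protein of this family, went from 401, 405 and 484 FPKM to 274, 266 and 272 FPKM (change -0.66), while MTF1, the zinc sensor that activates it, rose by 0.56. Retinoid genes gave 2 higher and 4 lower of 9 (median 0.02). DHRS3, which turns retinal back into retinol, went from 9.15, 10.3 and 7.58 FPKM to 0.83, 0.79 and 0.74 FPKM (change -2.48 ± 0.15, adjusted p = 5.46e-12), while the retinoic acid carrier CRABP2 rose by 1.55 and the receptor RARA by 0.76. Outside the lists, TSPYL2, a nuclear protein of the nucleosome assembly family, went from 5.10, 5.04 and 5.56 FPKM to 65.9, 42.3 and 63.9 FPKM (change 3.20 ± 0.12). NPPB, the precursor of B-type natriuretic peptide, had the largest fall, from 213, 218 and 146 FPKM to 28.8, 38.9 and 29.3 FPKM (change -2.53 ± 0.21). PDZK1IP1 fell by 2.50 ± 0.21, RASGRF1, a Ras exchange factor, by 1.98 ± 0.14 and PLAC8 by 1.88 ± 0.13.

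**Figure D4:**
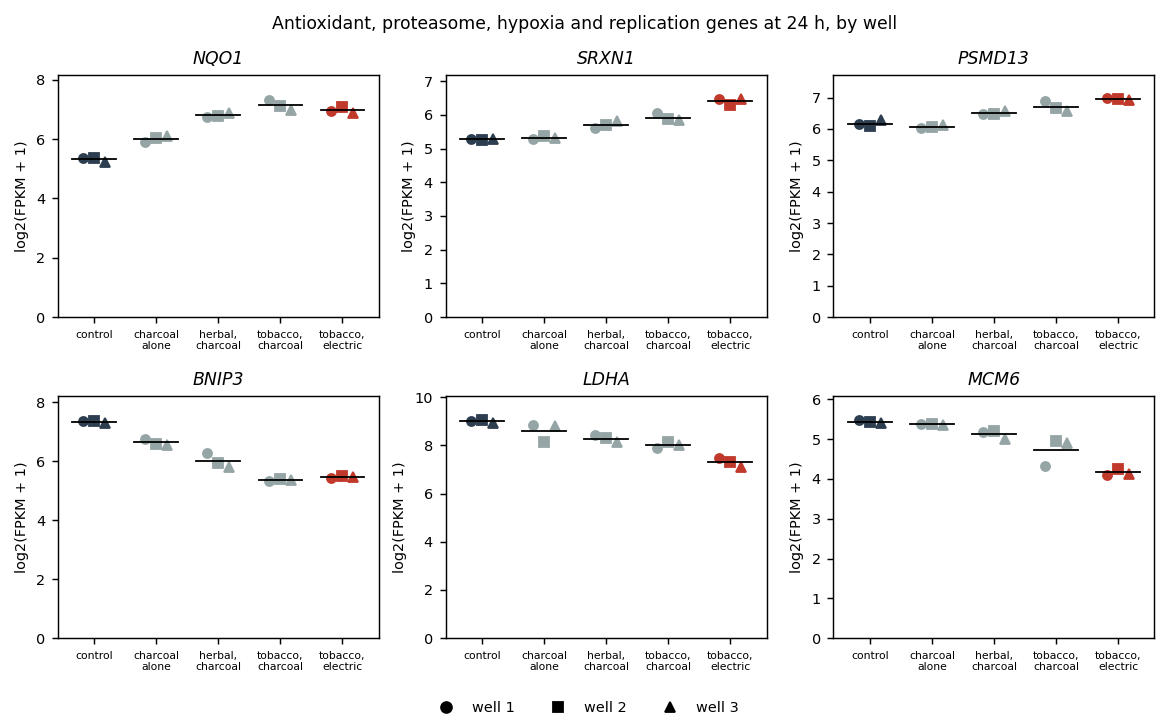
Levels at 24 h, as log2(FPKM + 1) with 1 point per well and bars at the mean of 3 wells, for antioxidant (NQO1, SRXN1), proteasome (PSMD13), hypoxia (BNIP3, LDHA) and replication (MCM6) genes. The NQO1 wells overlap between tobacco shisha on charcoal and on the electric heater, while SRXN1 is higher and LDHA and MCM6 are lower in the electric heater wells than in any other group.

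The heat source was addressed by setting the electric heater wells directly against tobacco shisha on charcoal at 24 h. This contrast called 4078 genes (47.8%), 1955 higher (22.9%) and 2123 lower (24.9%). By 2-fold or more, 102 were higher (1.2%) and 18 lower (0.211%). All 12 of the largest rises over control were also higher than after charcoal-heated tobacco. These 12 were chosen for high levels in the same electric heater wells, so their count is not a separate result on the heat source. HSPA1A averaged 16.6 ± 0.50 FPKM (SD, n = 3) after tobacco on charcoal and 219 ± 130 after tobacco on the electric heater, a difference of 3.42 (adjusted p = 3.53e-09). HSPA6 was at 0.23 ± 0.04 FPKM on charcoal, close to the control level, and MMP3 at 2.72 ± 1.3 FPKM, against 121 ± 116 and 141 ± 38 on the electric heater. Over the 3 HSP lists, 35 of 48 genes were higher and 5 lower than on charcoal (median 0.57). SERPINH1 and CLU were above charcoal-heated tobacco by 1.91 and 1.71, more than above control.

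For other strongly changed genes the difference between heat sources was not called. NQO1 averaged 140.3 ± 18 FPKM on charcoal and 124 ± 9.4 on the electric heater, a difference of -0.17 (95% interval -0.32 to -0.02, adjusted p = 0.0628). For BNIP3 the difference was 0.10 (interval -0.08 to 0.28), for PDK1 -0.03 (-0.21 to 0.16) and for DHRS3 0.12 (-0.18 to 0.42), none of them called. GBP1 differed by -0.32 (-0.66 to 0.02), also not called. NRF2 targets gave 7 higher and 5 lower of 24 than on charcoal (median 0.02), proteasome subunits 6 higher and 4 lower of 26 (median -0.02), and hypoxia genes 10 higher and 7 lower of 27 (median 0.11). Replication genes were lower than on charcoal for 19 of 26 and higher for none (median -0.38), and mitosis genes for 23 of 27 and higher for none (median -0.47). CXCL8 and IL6 were lower than on charcoal, by 0.51 and 0.84. The doses were set separately for each exposure, so a different heat source and a different effective dose cannot be told apart.

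Against herbal shisha on charcoal 4772 genes were called (55.9%), 2362 higher (27.7%) and 2410 lower (28.2%). Against charcoal alone there were 5376 (63%), 2725 higher (31.9%) and 2651 lower (31.1%). These contrasts use the same 3 electric heater wells, so they are not independent of each other. All 12 largest rises were higher than each of these groups as well. Of the 12 largest falls, 12 were lower than charcoal alone, 11 lower than herbal shisha and 9 lower than tobacco shisha on charcoal. Both sets of 12 were chosen by these same electric heater wells against control, which favours such counts. DHRS3 averaged 14.1 ± 0.84 FPKM after charcoal alone, 1.27 ± 0.74 after herbal shisha on charcoal, 0.66 ± 0.25 after tobacco shisha on charcoal and 0.79 ± 0.05 after the electric heater, so the 3 groups with shisha were low and charcoal alone was not. Its difference from charcoal alone was -3.08 (adjusted p = 3.5e-13), and that from herbal shisha was not called (adjusted p = 0.087). COL1A1 averaged 138 ± 10.1 FPKM in control, 143 ± 3.9 after charcoal alone, 109 ± 6.5 after herbal and 91.2 ± 24 after tobacco shisha on charcoal, and 47.8 ± 4.4 after the electric heater. The electric heater wells were below each of these groups, the nearest being tobacco on charcoal at a difference of -0.89 (adjusted p = 2.23e-06).

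Most of the chaperone rise was later than 2 h. The exposure effects at 24 h and at 2 h, each against its own control wells, were compared by an interaction test. The difference, the effect at 24 h minus that at 2 h, was called for 4918 genes (57.6%). It was positive for 2970 (34.8%) and negative for 1948 (22.8%). The sign does not give the size of either effect: a negative difference can be a fall that grew, and a positive one a fall that shrank. At 2 h itself 2903 genes were called (34%), 791 higher (9.27%) and 2112 lower (24.8%). HSPA1A averaged 14.1 ± 0.34 FPKM in control and 35.6 ± 6.3 in exposed wells at 2 h, a change of 1.26, so its effect grew by 2.37 (adjusted p = 1.6e-05). HSPA6 reached 4.27 ± 1.3 FPKM at 2 h and 121 ± 116 at 24 h, a difference of effects of 3.89. For HSPH1 the effect was 0.29 and not called at 2 h, and 2.18 at 24 h (difference 1.89). HSPD1, STIP1, HSPA8 and HSP90AA1 were likewise not called at 2 h and rose at 24 h, with differences of 1.22, 1.29, 1.05 and 1.71. DNAJB1 was the exception among the chaperones named: it averaged 152 ± 17 FPKM at 2 h and 173 ± 89 at 24 h, and its effects of 1.41 and 1.49 did not differ by the test (adjusted p = 0.83). Over the 3 HSP lists, the difference was called and positive for 37 of 48 genes and called and negative for 3 (median 0.73).

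MMP3 was at 1.08 ± 0.74 FPKM 2 h after exposure and 0.36 ± 0.14 in its control, which was not called (adjusted p = 0.067), and MMP1 and MMP10 were at or near 0 at 2 h in both groups. NQO1 also rose late, with an effect of 0.08 at 2 h and 1.64 at 24 h (difference 1.56). Immediate early genes ran the other way. FOS averaged 226 ± 42 FPKM at 2 h against 3.87 ± 3.3 at 24 h, and EGR1 341 ± 26 against 5.53 ± 2.8, with differences of effects of -5.53 and -6.17. The difference was negative for all of the 20 immediate early genes for which it was called. IL6 averaged 23.0 FPKM in exposed and 7.44 in control wells at 2 h, a rise, and was below control at 24 h, a difference of -1.82. NPPB rose by 0.72 at 2 h and fell by 2.53 at 24 h (difference -3.24), and GBP1 likewise was 0.43 above control at 2 h and 1.92 below it at 24 h.

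**Figure D5:**
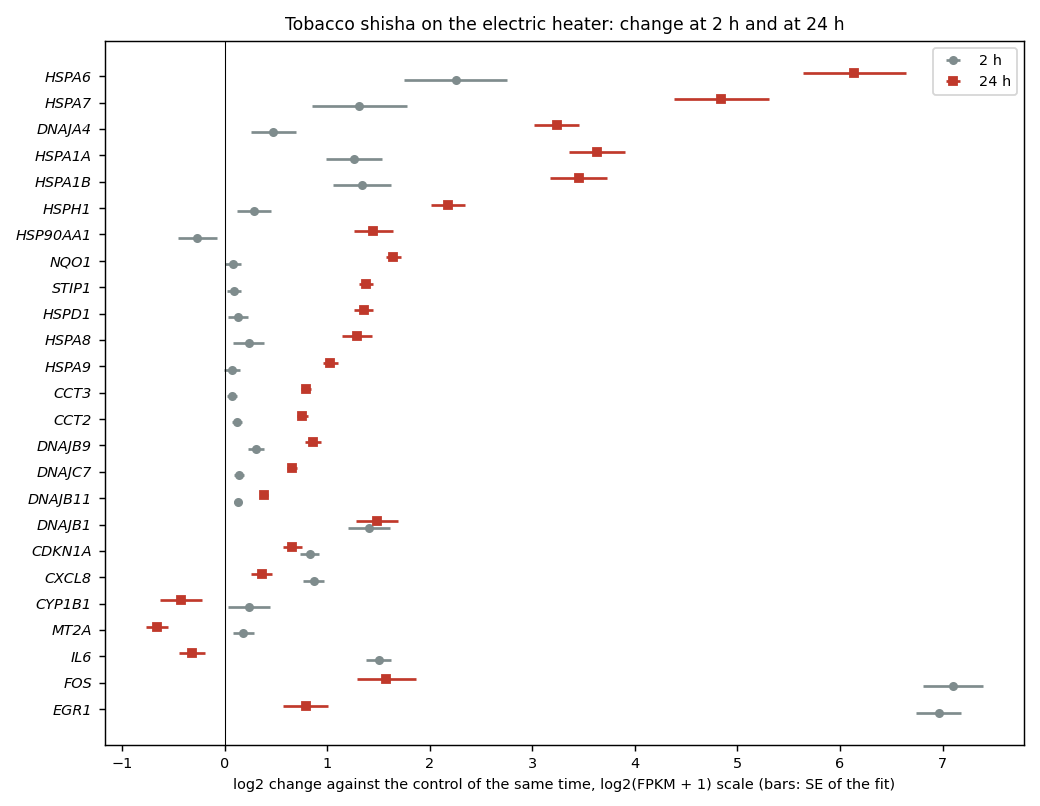
Log2 change of 25 genes after tobacco shisha on the electric heater against the control of the same time, at 2 h (grey circles) and 24 h (red squares), with bars for the SE of the fit. The effect at 24 h minus that at 2 h is called and positive for 17 genes and called and negative for 5 (FOS, EGR1, IL6, CXCL8 and MT2A). It is not called for DNAJB1, CDKN1A and CYP1B1.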

How the data were processed

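BEAS-2B cells were profiled by RNA sequencing (TruSeq, 50-base single-end reads, per the labels' protocols). The deposited table holds FPKM values per transcript; the authors aligned reads to hg38 with HISAT2 2.1.0 and assembled with StringTie 1.3.4d, per the submitters' processing notes. No source used here gives the annotation release, filters, strand setting or depth; the spacing of low values did not recover whole reads (16.2% of 327 ratios lay within 1% of the commonest). Each gene is represented by its row with the highest mean over 30 libraries; of 29190 transcripts, 22537 names were distinct. Genes with at least 1 FPKM in at least 3 libraries (8531) were tested on log2(FPKM + 1), which understates changes of low genes, with limma 3.58.1 (trend, R 4.3.3), 1 mean per group over all 10 groups and 30 libraries, and Benjamini-Hochberg adjustment over 8531 genes. An exact 0 can be a failed estimate: 100 tested genes with a median of at least 1 FPKM held one, 51 of them in these 6 libraries. The rule for named genes took, from called genes of at least 1 FPKM without overlap between wells, the 12 that rose most and the 12 that fell most, plus the 3 lowest p-values within every list and a fixed set of stress genes, 105 in all. Other genes named were picked after their values were seen. The members and lists were chosen with earlier results of these data known. Alternatives were other pseudocounts, filters, scaling and fits, and leaving out each library. Some well-known stress genes are not analysed here.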

Additional observations from a re-analysis of the deposited data

Results flagged for a closer look

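For 25 chaperone and stress genes the effect of tobacco shisha on the electric heater was compared between 24 h and 2 h, each time against the control wells of that time, and for 22 of them the test of the difference was called (limma, adjusted p below 0.05). Values are the log2 effect at 24 h minus that at 2 h. Among the HSP70 genes the difference was 3.89 for HSPA6, 3.53 for HSPA7, 2.37 for HSPA1A, 2.11 for HSPA1B, 1.89 for HSPH1, 1.05 for HSPA8 and 0.96 for HSPA9. Co-chaperones ranged from 2.76 for DNAJA4 through 0.55 for DNAJB9 and 0.52 for DNAJC7 to 0.26 for DNAJB11. HSP90AA1 gave 1.71, STIP1 1.29, HSPD1 1.22, CCT3 0.72 and CCT2 0.64. NQO1 gave 1.56. The effect was smaller at 24 h for EGR1 (-6.17), FOS (-5.53), IL6 (-1.82), MT2A (-0.84) and CXCL8 (-0.51). Groups of 3 wells are too small for the test of a single outlying sample.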

How the results depend on the processing

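The 5440 genes called against control, 4078 against tobacco on charcoal, 4772 against herbal shisha, 5376 against charcoal alone and 4918 in the 24 h minus 2 h difference stayed within 1.5 times in every alternative fit, with these exceptions. A minimum change of 2-fold left 409, 120, 206, 440 and 483, in the same order, because it asks for a larger change. A fit on the compared groups alone called 2559 against tobacco on charcoal. The same kind of fit called 5093 against control, 3737 against herbal shisha, 5018 against charcoal alone and 4683 in the 24 h minus 2 h difference. Why the count against tobacco on charcoal moved most was not tested. Leaving out 1 library at a time gave 5014 to 5408, 3384 to 4225, 4181 to 4802, 4932 to 5314 and 4638 to 5020. Replicate numbers did not pair the wells (correlations of same-numbered deviations -0.064, -0.014 and -0.004), and a fit with the replicate number as a block called 5432, 4094, 4745, 5360 and 4910. Median-of-ratios scaling moved the split of the 24 h minus 2 h calls from 2970 positive and 1948 negative to 2450 and 2385, and the median change of all genes against control from 0.03 to 0.01. Of 1155 values of named genes under these alternatives, none reversed, 7 lost and 8 gained a call, in 6 genes. Of 208 counts of list members, 2 moved by over 1.5 times: AHR targets, 2 to 4 without the third control well, and junctions and keratins, 13 to 8 without the second. Depth is unknown, so the counting error of levels under about 1 FPKM could not be estimated and none is given.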

Other observations

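Of the 409 genes called with a change of 2-fold or more, 327 were in none of the lists (140 higher, 187 lower). The groups below were picked after their values were seen, and no test was made of them as groups. Both enzymes that start polyamine breakdown rose. SAT1, which acetylates spermidine and spermine, went from 5.22, 5.24 and 4.99 FPKM in control to 40.4, 30.3 and 49.2 FPKM, a change of 2.71 ± 0.16 (limma adjusted p = 5.9e-12), and stood 2.33 above tobacco shisha on charcoal. SMOX, spermine oxidase, went from 6.31, 6.03 and 6.21 FPKM to 24.7, 18.7 and 37.3 FPKM (change 1.90 ± 0.16, adjusted p = 9.28e-10) and stood 2.36 above tobacco shisha on charcoal. ODC1, which makes the first polyamine, also rose, by 0.86. TNFRSF10D, a decoy receptor for the death ligand TRAIL, went from 3.19, 3.09 and 3.34 FPKM to 33.5, 17.7 and 40.7 FPKM (change 2.83 ± 0.17), and TNFRSF10A, a TRAIL receptor that can signal death, rose by 1.48. PGF, a growth factor of the VEGF family, rose from 1.52, 1.28 and 1.80 FPKM to 19.3, 8.94 and 27.9 FPKM (change 2.83 ± 0.23).

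A further 3 genes, picked in the same way, are known to be induced by ERK signalling. DUSP6, a phosphatase that limits ERK, changed by 1.60, and the factors ETV4 and ETV5 by 1.61 and 1.46. Their changes at 2 h were 2.54, 0.22 and -0.30. TXNIP, an inhibitor of thioredoxin and glucose uptake, fell from 54.8, 55.6 and 55.3 FPKM to 14.0, 19.2 and 16.4 FPKM (change -1.69 ± 0.15), and its difference from tobacco shisha on charcoal was not called (-0.07, 95% interval -0.39 to 0.25). FBN2 (fibrillin-2), a matrix protein on none of the lists, fell by 1.60.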
